A study of Gallus gallus with 5 samples.

Results

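Messenger RNA of chicken (Gallus gallus) blastoderms stored for 7 days at 16 °C was compared with that of blastoderms incubated for 4 h at 37 °C. These are 2 of the 5 libraries of the series, chosen by their labels, with 1 library per condition. The other 3 libraries came from blastoderms that were not stored, stored for 7 days at 4 °C, and stored for 7 days at 24 °C. The sources used here give neither the strain and embryo stage, nor the number of blastoderms in a library, nor whether the incubated blastoderms had been stored beforehand. Of 10102 genes that received a symbol, 7733 reached 1 FPKM (fragments per kilobase of transcript per 1000000 mapped fragments) in at least 1 of the 5 libraries, and 7697 of these were above 0 in both libraries compared. Without replicates no difference below has a replicate check, and none has a p-value, a standard deviation between replicates or a standard error.

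The blastoderm is the flat embryo of a freshly laid egg, made of the epiblast, an epithelium that forms the body, and of hypoblast cells that gather beneath it. Cooling below the temperature at which development runs holds the embryo in a dormant state, which hatcheries use to keep eggs before setting them. Warming to incubation temperature restarts cell division, hypoblast spreading and the movements that lead to the primitive streak, the groove through which mesoderm and endoderm leave the epiblast. The title of the series names late apoptosis and the G2/M phase of the cell cycle in dormancy, and the comparison sets a blastoderm held in the cool against one that had been warm for 4 h.

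Differences are given as a log2 ratio, the value at 16 °C minus the value in the incubated library on the log2(FPKM + 1) scale, and a gene was counted when this reached 1 in size. On this scale 419 genes (5.44%) were at least 2-fold higher at 16 °C and 1100 genes (14.3%) were at least 2-fold lower. Lower values at 16 °C thus made up 72.4% of the counted genes. The log2 ratio of all genes had a median of -0.15, and after median-ratio size factors had removed this shift the counts were 605 higher and 840 lower, so that lower values made up 58.1%. At least 4-fold differences were found for 34 higher and 129 lower genes, and at least 8-fold differences for 8 higher and 20 lower genes. Among genes with a mean of at least 100 FPKM over the 5 libraries, 1.78% were higher and 8% were lower, against 6% and 17.4% of genes with a mean of 5 to 20 FPKM, where the share of lower genes was highest, and 6.35% and 15.5% of genes with a mean under 5 FPKM. The depth of sequencing is unknown, so counting error cannot be told apart from a difference at low values.

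**Figure D1:**
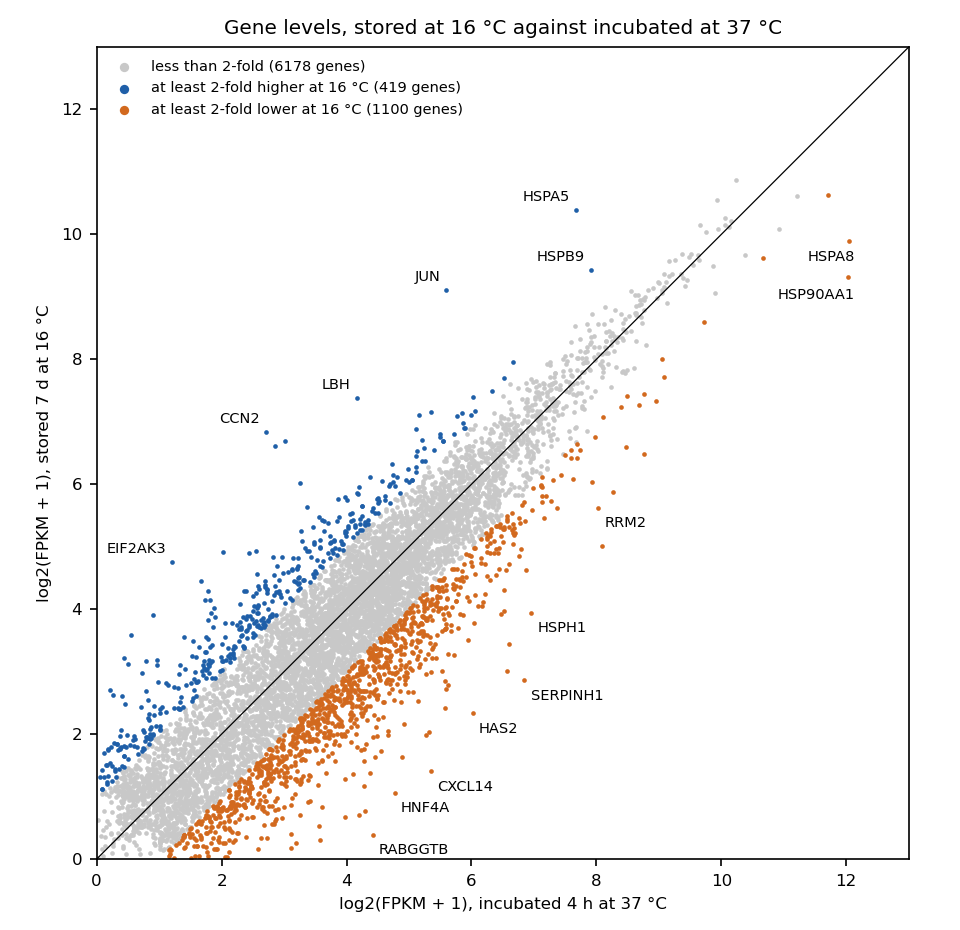
Each point is 1 of 7697 genes, with log2(FPKM + 1) in the library incubated for 4 h at 37 °C on the x axis and in the library stored for 7 days at 16 °C on the y axis; the line marks equal values. The 1100 orange genes, at least 2-fold lower at 16 °C, outnumber the 419 blue ones, and JUN, HSPA5 and HSPB9 stand above the line at levels where few genes do.

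The libraries carried transcripts of a blastoderm. NANOG, a pluripotency factor of the epiblast, had 225 FPKM at 16 °C and 357 FPKM in the incubated library, and EPCAM, an adhesion molecule of epithelia, had 524 FPKM at 16 °C and 391 FPKM after incubation. SOX17 and FOXA2, which mark endoderm and hypoblast, were at 4.73 and 9.56 FPKM at 16 °C and at 15.1 and 33.6 FPKM after incubation. POU5F3, GATA4 and GATA6, further defining markers of these layers, were not analysed here. Markers of other cells were low. In the sums that follow the value at 16 °C stands before the value after incubation. Only markers that reached 1 FPKM in any library and were above 0 in both compared libraries were summed. The sums were 12.1 and 24.1 FPKM for 5 erythroid markers and 35.3 and 44.5 FPKM for 9 white blood cell markers. They were 12.4 and 9.31 FPKM for 3 oocyte markers and 11.9 and 15.3 FPKM for 7 follicle and granulosa markers. For 9 muscle and neural markers they were 23.2 and 48.9 FPKM, and for 7 germ cell markers 32.0 and 33.8 FPKM. The 5 egg white and oviduct markers of this kind summed to 47.1 FPKM at 16 °C and 71.9 FPKM after incubation. CLU alone made 34.7 FPKM of this at 16 °C and 63.7 FPKM after incubation. The ovalbumin gene OVAL and the T cell gene CD4 were listed at 0 at 16 °C, and the globin genes HBBA, HBE1 and HBA1 at 0 after incubation. Of 9 compared white blood cell markers 4 were lower at 16 °C by at least 2-fold (44.4%, against 14.3% of all genes). Among the 4, CCL4 and CCR7 reached 1 FPKM in the incubated library alone, so the filter fixed their direction. At a pseudocount of 5, 0 were lower, so the share says little about these markers. The 1 higher marker (11.1%, against 5.44%) was LCP1, an actin bundling protein. The part of such cells in the results below was not tested.

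Immediate early genes, which signals and stress switch on without new protein synthesis, had higher levels in the blastoderm stored at 16 °C. Of 27 compared members of a list of 43, 15 were at least 2-fold higher at 16 °C, against 5.44% of all genes, and 0 were lower. Their median log2 ratio was 1.24, against -0.15 for all genes. Genes without a matched row, or under 1 FPKM in all 5 libraries, are not among the compared members here or below. Of 286 genes that passed the bound and are list members or named by rank, 104 were under 2-fold at a pseudocount of 5 and 44 with size factors. The AP-1 subunit JUN had 549 FPKM at 16 °C and 47.4 FPKM in the incubated library, a log2 ratio of 3.51. Its values of 52.7, 55.4 and 64.2 FPKM without storage, at 4 °C and at 24 °C lay close to the incubated one, so that the library stored at 16 °C stood alone. FOS, the partner of JUN in AP-1, had 48.9 FPKM at 16 °C against 9.28 FPKM after incubation, and here the library stored at 24 °C lay between them. The related factors FOSL2 and MAFF had 117 and 37.2 FPKM at 16 °C and 33.6 and 8.63 FPKM after incubation. The nuclear receptor NR4A3 was low in every library, with 4.62 FPKM at 16 °C against 0.37 FPKM after incubation. It reached 1 FPKM at 16 °C alone, so the filter fixed its direction. The antiproliferative genes BTG1 and BTG2 and the stress sensors GADD45A and GADD45G belonged to the same set of higher genes, with log2 ratios between 1.01 and 1.77. Not every member took part. EGR1, a zinc finger factor of the serum response, had 5.77 FPKM at 16 °C and 4.47 FPKM after incubation. MYC, which drives growth, had 31.0 FPKM at 16 °C and 57.8 FPKM after incubation, and both stayed under the 2-fold bound.

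CCN2 and CCN1 (CYR61 in the reference table), matricellular proteins counted both as immediate early genes and as targets of the Hippo effector YAP1, differed strongly. CCN2 had the highest log2 ratio of the genes with at least 5 FPKM in 1 of the 2 libraries, 4.12, from 113 FPKM at 16 °C against 5.55 FPKM after incubation. It measured 13.3 FPKM in the unstored library, 10.2 FPKM at 4 °C and 12.5 FPKM at 24 °C. CYR61 had 29.5 FPKM at 16 °C and between 3.97 and 6.71 FPKM in the other 4 libraries. Of 12 compared Hippo pathway genes 4 were higher (33.3%, against 5.44% of all genes) and 1 was lower (8.33%, against 14.3%). CRIM1 and the DNA-binding partner TEAD1 joined the CCN genes with log2 ratios of 1.56 and 1.11, and TEAD4 went the other way at -1.67. YAP1 itself had a log2 ratio of -0.09.

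Phosphatases of the DUSP family, which switch off MAP kinases and are themselves induced by MAP kinase activity, split by member. DUSP1 had 97.1 FPKM at 16 °C and 6.24 FPKM in the incubated library. DUSP8 had 102 FPKM at 16 °C against 7.08 FPKM after incubation. DUSP10 had 63.7 FPKM at 16 °C against 8.57 FPKM after incubation. All of them act on the stress kinases JNK and p38. Each exceeded all other 4 libraries at least 2-fold at 16 °C: the next value of DUSP8 was 23.2 FPKM at 24 °C, that of DUSP1 18.9 FPKM at 4 °C and that of DUSP10 25.1 FPKM at 4 °C. DUSP6, DUSP5 and DUSP4, known for acting on ERK, did not pass the bound, with log2 ratios of 0.55, -0.33 and -0.60. Whether the split follows the kinase acted on was not tested. SPRY1, an inhibitor of receptor tyrosine kinase signals, was higher at 16 °C with a log2 ratio of 1.53, whereas SPRY2 was at -0.87. In all, 5 of 15 compared DUSP and Sprouty genes were higher (33.3%, against 5.44% of all genes). The one not yet named was DUSP12, with a log2 ratio of 1.115, which was under 2-fold at a pseudocount of 5. The median log2 ratio of the 15 was -0.13. The 1 lower gene (6.67%, against 14.3%) was DUSP16, at 0.12 FPKM at 16 °C against 2.69 FPKM after incubation. DUSP16 also acts on JNK and p38, and at a pseudocount of 5 it was under 2-fold. With curated accessions only the median was 0.83.

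Cytosolic chaperones, which fold new proteins and rescue unfolded ones, were mostly at lower levels in the blastoderm stored at 16 °C. Of 31 compared members 10 were at least 2-fold lower (32.3%, against 14.3% of all genes) and 3 were higher (9.68%, against 5.44%). The median log2 ratio was -0.48, and 22 of 31 ratios were below 0. Much of the difference in amount lay in abundant members: HSP90AA1, the inducible HSP90, had 639 FPKM at 16 °C and 4182 FPKM in the incubated library. HSPA8, the constitutive HSP70, had 949 FPKM at 16 °C against 4199.8 FPKM after incubation. Co-chaperones went with them. HSPH1, an exchange factor of HSP70, had 14.4 FPKM at 16 °C against 123 FPKM after incubation. DNAJA1, a J-domain partner, had 23.8 FPKM at 16 °C against 117 FPKM after incubation. The values at 24 °C lay near those at 16 °C, with 985 FPKM for HSP90AA1, 1085 FPKM for HSPA8 and 11.5 FPKM for HSPH1. On a log scale those of the unstored library lay nearer the incubated one, at 2979.8, 2455 and 113 FPKM for the same genes in that order. The summed level of the 31 compared chaperones was 3553 FPKM at 16 °C, 10485 FPKM after incubation, 7449 FPKM without storage, 8924 FPKM at 4 °C and 3338 FPKM at 24 °C. The 3 higher members, HSPB9, BAG5 and DNAJB4, went against this pattern. BAG5 and DNAJB4 had log2 ratios of 1.25 and 1.21. BAG5 was under 2-fold at a pseudocount of 5, and DNAJB4 with the highest row per gene. HSPB9, a small heat shock protein, had 687 FPKM at 16 °C and 239.9 FPKM in the incubated library, and with 64.7 FPKM it was low at 24 °C.

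Other chaperones, of the cytosol and of mitochondria, differed in part. In the CCT and prefoldin list 2 of 11 compared members were lower (18.2%, against 14.3% of all genes), at a median log2 ratio of -0.41. They were CCT4 and CCT6A of the chaperonin CCT, a ring that folds actin and tubulin. With size factors neither was counted. In mitochondria HSPD1, the chaperonin HSP60, had 173 FPKM at 16 °C and 432 FPKM after incubation. PMPCA, a subunit of the peptidase that trims imported proteins, had 32.8 FPKM at 16 °C against 90.1 FPKM after incubation. These were among 3 lower genes of 14 (21.4%), while HSPA9, the mitochondrial HSP70, was at 314 FPKM at 16 °C and 284 FPKM after incubation.

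The endoplasmic reticulum showed a contrast among its own genes. HSPA5 (BiP), its HSP70 and a sensor of unfolded protein, had 1334 FPKM at 16 °C and 204 FPKM in the incubated library, a log2 ratio of 2.70. It measured 187 FPKM without storage, 203 FPKM at 4 °C and 321 FPKM at 24 °C. EIF2AK3 (PERK), the kinase that slows translation when proteins misfold there, had 26.0 FPKM at 16 °C against 1.32 FPKM after incubation, with 10.5 FPKM at 24 °C. Both were at least 2-fold above every other library. Most other genes of the list stayed under the 2-fold bound, with log2 ratios of 0.78 for the chaperone HSP90B1, 0.58 for the transcription factor XBP1 and 0.10 for the disulfide isomerase PDIA4. SERPINH1, the chaperone of collagen, was far lower at 16 °C with 6.27 FPKM at 16 °C against 114 FPKM after incubation. Over 29 compared members 2 were higher (6.9%, against 5.44% of all genes) and 3 lower (10.3%, against 14.3%). Their median log2 ratio was 0.10. Downstream of PERK the integrated stress response list had 0 higher members and 2 lower ones of 14, CEBPG and MTHFD2, the same share as over all genes (14.3%). MTHFD2, a folate enzyme, had 11.2 FPKM at 16 °C against 34.2 FPKM after incubation. Its main factor ATF4 had 61.0 FPKM at 16 °C and 102 FPKM after incubation.

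RBM3, an RNA-binding protein known in mammals for its induction by mild cold, had 246 FPKM at 16 °C and 101 FPKM in the incubated library. The unstored library held 299 FPKM, more than any other library. SRSF5, a splicing factor, had 53.6 FPKM at 16 °C against 13.5 FPKM after incubation, and 37.2 FPKM without storage. The RNA-binding proteins LIN28A and LIN28B, which block maturation of let-7 and mark pluripotent cells, were lower at 16 °C. LIN28A had 14.2 FPKM at 16 °C against 88.1 FPKM after incubation. LIN28B had 33.9 FPKM at 16 °C against 70.1 FPKM after incubation. A list of RNA-binding proteins, not all of them linked to cold, held RBM3, SRSF5 and both LIN28 genes. It had 2 higher (28.6%, against 5.44% of all genes) and 2 lower members (28.6%, against 14.3%) of 7. LIN28B was under 2-fold at a pseudocount of 5, with size factors and after rescaling.

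**Figure D2:**
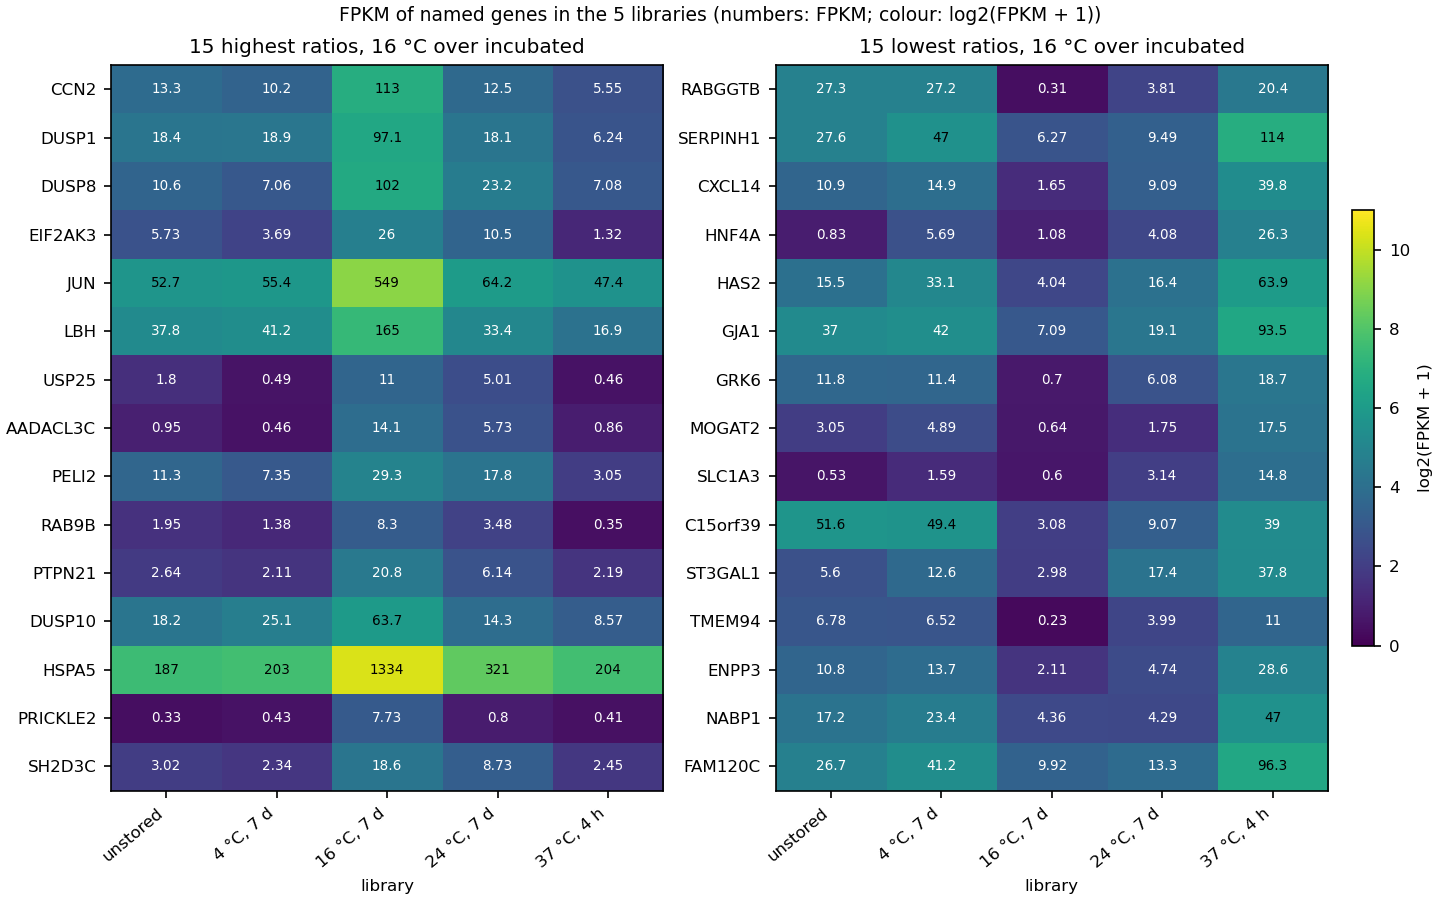
FPKM of the 15 genes with the highest (left) and the 15 with the lowest (right) log2 ratio of 16 °C over incubated, in the 5 libraries; numbers give FPKM and colour gives log2(FPKM + 1). JUN, CCN2, DUSP1 and HSPA5 are high at 16 °C alone, whereas HNF4A and SLC1A3 are high after incubation and near 1 FPKM or below it both at 16 °C and without storage.

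The other genes at the upper end of the ratio belonged to no single list. LBH, a transcription cofactor, had 165 FPKM at 16 °C and 16.9 FPKM in the incubated library, with 37.8 FPKM in the unstored library. PELI2, a ubiquitin ligase of interleukin and Toll-like receptor signals, had 29.3 FPKM at 16 °C against 3.05 FPKM after incubation. PTPN21, a tyrosine phosphatase, and PRICKLE2, a planar cell polarity protein, were low in the other libraries. PTPN21 had 20.8 FPKM at 16 °C and between 2.11 and 6.14 FPKM in the other 4. PRICKLE2 had 7.73 FPKM at 16 °C and between 0.33 and 0.80 FPKM in the other 4, so the filter fixed its direction. USP25, RAB9B, SH2D3C and AADACL3C completed the set, with log2 ratios of 3.04, 2.78, 2.50 and 3.02. AADACL3C has a relative, AADACL3A, in the same table, and copies that share reads make its value uncertain.

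In the list of hypoblast and endoderm genes 43.8% of the compared members were lower at 16 °C, against 14.3% of all genes, and 6.25% were higher, against 5.44% of all genes. These were 7 lower members and 1 higher one of 16 compared, out of 30 listed, with a median log2 ratio of -0.93. Another 8 members were below 1 FPKM in all 5 libraries, and with the 7 of these that were above 0 in both libraries the median was 0. HNF4A, a nuclear receptor of extraembryonic endoderm and liver, had 1.08 FPKM at 16 °C and 26.3 FPKM in the incubated library, and the unstored library was at 0.83 FPKM. CER1, a secreted antagonist of Nodal and Wnt made by the hypoblast, had 0.19 FPKM at 16 °C against 8.18 FPKM after incubation, again with 0.24 FPKM without storage. SOX17 and FOXA2, whose values stand above, were at 16 °C near the unstored values of 5.35 and 12.2 FPKM. At 4 °C they were at 14.6 and 29.5 FPKM, close to the incubated library. CXCR4, a chemokine receptor, and FRZB, a Wnt antagonist, had 6.64 and 3.40 FPKM at 16 °C, against 29.2 and 13.7 FPKM after incubation. SOX7 alone was at least 2-fold higher, at 22.0 FPKM at 16 °C against 8.49 FPKM after incubation. The list was split, with 10 of the 16 ratios below 0 and 6 above 0. HHEX, under the bound, had 12.7 FPKM at 16 °C against 6.44 FPKM after incubation. In RNA from whole blastoderms, fewer cells of a type and less RNA per cell cannot be told apart.

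Genes of the primitive streak and of mesoderm formation were lower at 16 °C in 43.2% of the compared members, against 14.3% of all genes. Of 37 compared members, out of 52 listed, 16 were lower at 16 °C by at least 2-fold and 1 was higher, and 34 of 37 had a log2 ratio below 0, with a median of -0.90. Wnt ligands, which are needed to form the streak, were among them. WNT5A had 14.0 FPKM at 16 °C against 57.3 FPKM after incubation. WNT5B had 22.5 FPKM at 16 °C against 65.7 FPKM after incubation. WNT8A had 4.59 FPKM at 16 °C against 16.0 FPKM after incubation, and at 16 °C it was the lowest of the 5 libraries. Transcription factors followed. TBXT (brachyury), a defining factor of the streak, had 9.27 FPKM at 16 °C against 23.6 FPKM after incubation. EOMES, which acts in mesoderm and endoderm, had 4.91 FPKM at 16 °C against 17.2 FPKM after incubation. The unstored library was lower still for TBXT with 4.97 FPKM, whereas it was near the incubated one for EOMES with 14.2 FPKM. SNAI1, a repressor of E-cadherin, had 16.4 FPKM at 16 °C against 42.8 FPKM after incubation. The homeobox factor MSX1, a BMP target, had 21.0 FPKM at 16 °C against 77.8 FPKM after incubation. MIXL1 and CDX4, factors of the early streak and of posterior mesoderm, had 0.12 and 0.03 FPKM at 16 °C, against 1.26 and 2.11 FPKM after incubation, and reached 1 FPKM only in other libraries than the one stored at 16 °C. FGF8, a ligand made in the streak, was the higher member at 16.7 FPKM at 16 °C against 7.75 FPKM after incubation, with 16.9 FPKM in the unstored library. With size factors the counts were 14 lower and 1 higher of 36, beside 840 lower and 605 higher of 7686 genes. At a pseudocount of 5, 11 were lower and 0 higher, beside 484 and 175 of 7697 genes.

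Receptors and other ligands of growth factor pathways followed, with 19 of 66 compared members lower (28.8%, against 14.3% of all genes). The 3 higher ones were 4.55%, against 5.44%. The median log2 ratio of -0.18 hardly differed from that of all genes. SFRP1, a Wnt antagonist, had 6.99 FPKM at 16 °C and 39.7 FPKM in the incubated library. Several receptor tyrosine kinases were on the lower side. FGFR3 had 6.01 FPKM at 16 °C against 29.7 FPKM after incubation. PDGFRA, a receptor of early mesoderm, had 4.73 FPKM at 16 °C against 23.1 FPKM after incubation. EGFR had 1.07 FPKM at 16 °C against 8.03 FPKM after incubation. KDR, a receptor of endothelial precursors, had 0.28 FPKM at 16 °C against 2.90 FPKM after incubation, and it was at or below 0.37 FPKM in the 4 libraries other than the incubated one. KDR thus passed the filter through the incubated library alone, which fixed its direction. At a pseudocount of 5 it was under 2-fold. The Notch ligand DLL4 was higher, with 7.99 FPKM at 16 °C against 0.72 FPKM after incubation. Its relative DLL1 was lower, with 21.1 FPKM at 16 °C against 44.8 FPKM after incubation, and was under 2-fold with size factors. FGFR1, the main FGF receptor of the epiblast, had a log2 ratio of -0.13.

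Pluripotency and epiblast genes gave 4 lower (21.1%, against 14.3% of all genes) and 1 higher (5.26%, against 5.44%) of 19 compared. Their median log2 ratio was -0.66. LIN28A and LIN28B, given above in another list, were among the lower ones. The zinc finger factor SALL4 had 57.8 FPKM at 16 °C and 307 FPKM in the incubated library, and was lower at 16 °C than in each of the 4 others, the nearest being 121 FPKM at 24 °C. SALL1 had 7.25 FPKM at 16 °C against 28.1 FPKM after incubation. NANOG and the neural and epiblast factor SOX3 stayed under the 2-fold bound against the incubated library, with a log2 ratio of -0.66 for NANOG, and SOX3 had 27.3 FPKM at 16 °C against 55.6 FPKM after incubation. Both were higher in the unstored library, at 526 and 103 FPKM, than in either of the libraries compared.

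Extracellular matrix, integrin and protease genes had 17 lower members of 49 compared (34.7%, against 14.3% of all genes) and 3 higher ones (6.12%, against 5.44%), with a median log2 ratio of -0.69. Collagen chains COL1A2 and COL4A2 had 4.74 and 2.31 FPKM at 16 °C, against 23.2 and 8.67 FPKM after incubation. Laminin LAMA1, a basement membrane component, had 30.2 FPKM at 16 °C against 82.9 FPKM after incubation. The proteoglycan VCAN had 1.36 FPKM at 16 °C against 8.62 FPKM after incubation. Receptors for matrix were lower too. ITGAV, the integrin chain that binds vitronectin and fibronectin, had 17.3 FPKM at 16 °C against 60.1 FPKM after incubation. Its partner ITGB5 had 36.1 FPKM at 16 °C against 100.1 FPKM after incubation. ADAM19, a membrane protease, had 2.33 FPKM at 16 °C against 22.4 FPKM after incubation. On the higher side stood the protease MMP9, its inhibitor TIMP3 and the hyaluronan receptor CD44. MMP9 had 11.1 FPKM at 16 °C against 4.01 FPKM after incubation, with 0.49 FPKM without storage and 8.50 FPKM at 24 °C. TIMP3 had 23.9 FPKM at 16 °C against 7.73 FPKM after incubation. Fibronectin (FN1), with 71.6 FPKM at 16 °C against 135 FPKM after incubation, stayed under the bound. At a pseudocount of 5 the list had 9 lower members and 1 higher one, beside 484 lower and 175 higher of 7697 genes. The enzyme that makes hyaluronan, HAS2, had 4.04 FPKM at 16 °C and 63.9 FPKM in the incubated library, a log2 ratio of -3.69, and between 15.5 and 33.1 FPKM in the other 3 libraries.

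**Figure D3:**
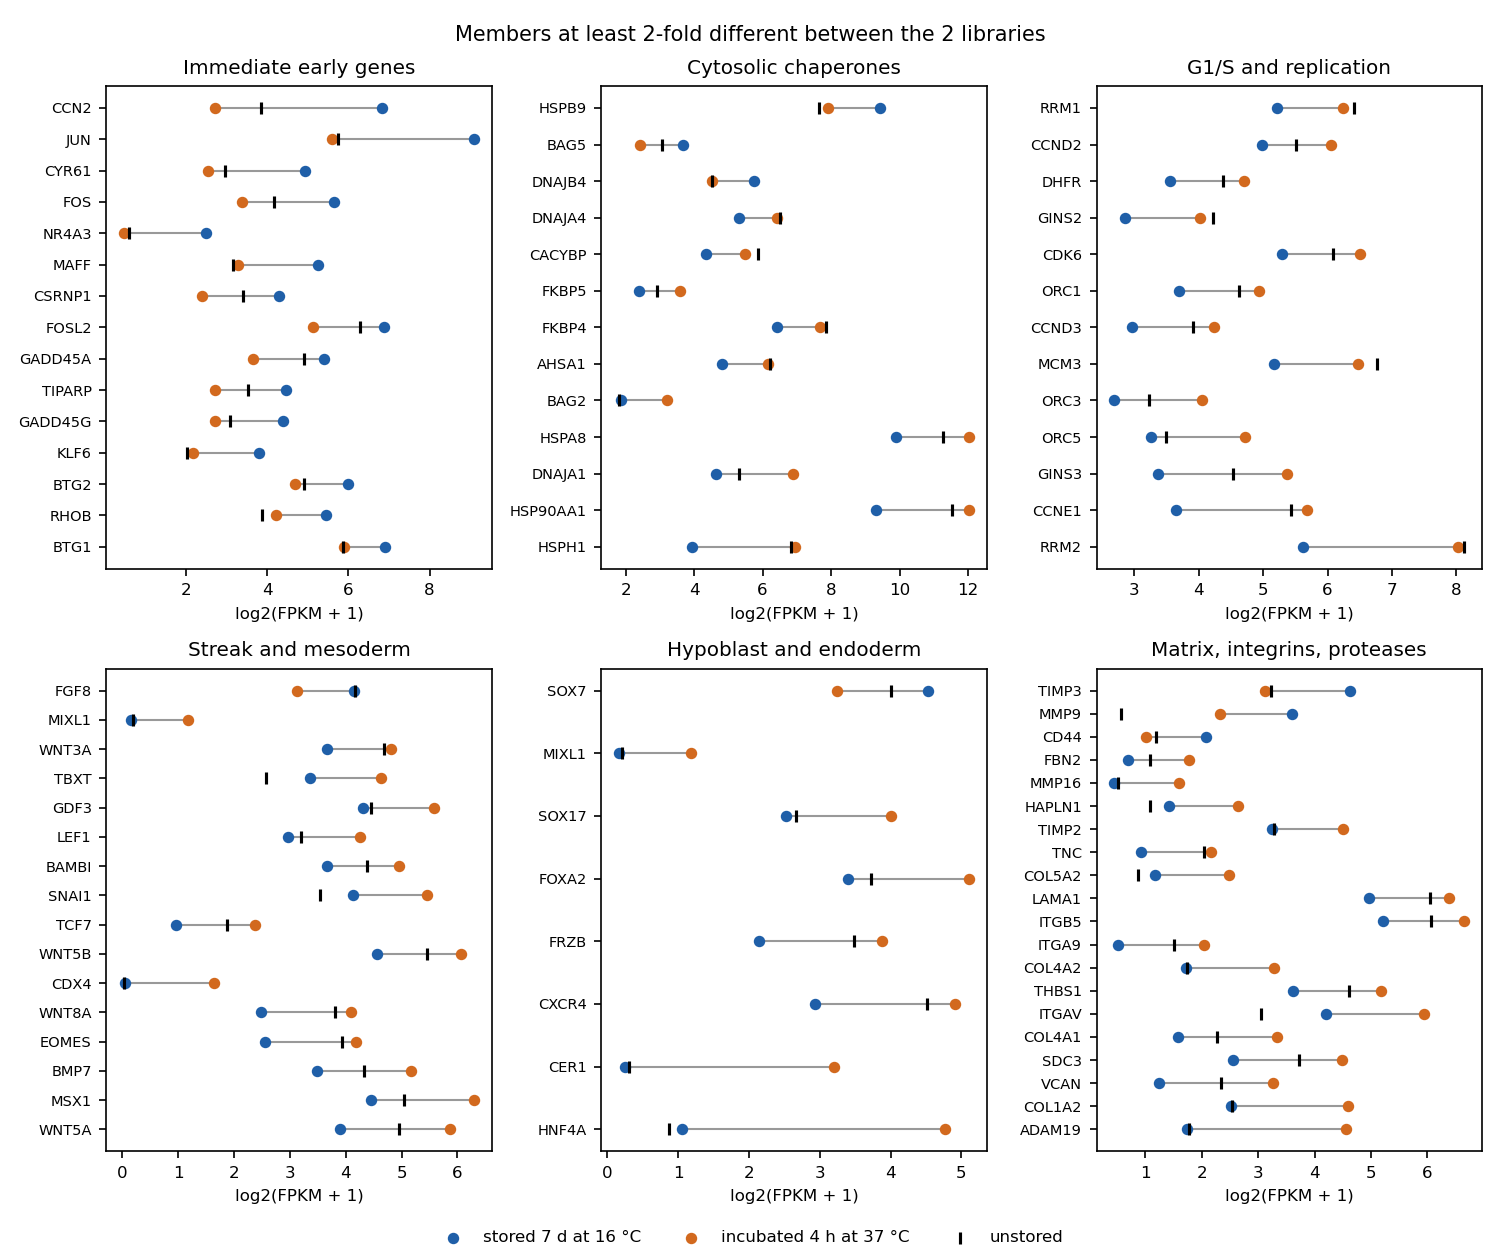
Members of 6 gene lists that differ at least 2-fold, with log2(FPKM + 1) on the x axis; blue points are the library stored at 16 °C, orange points the incubated library and black ticks the unstored library. The blue points lie right of the orange ones in all 15 immediate early genes, and left of them in all 13 genes of the G1/S list and in 15 of the 16 streak genes drawn.

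The remaining genes at the lower end of the ratio included cell surface, carrier and enzyme genes. RABGGTB, a subunit of the enzyme that attaches lipids to RAB proteins, had 0.31 FPKM at 16 °C and 20.4 FPKM in the incubated library, the lowest log2 ratio of the named genes at -4.03, and it was also low at 24 °C with 3.81 FPKM. CXCL14, a chemokine, had 1.65 FPKM at 16 °C against 39.8 FPKM after incubation. GJA1 (connexin 43), which forms gap junctions, had 7.09 FPKM at 16 °C against 93.5 FPKM after incubation. SLC1A3, a glutamate carrier, had 0.60 FPKM at 16 °C against 14.8 FPKM after incubation and only 0.53 FPKM in the unstored library. ST3GAL1, a sialyltransferase, and MOGAT2, an enzyme of triglyceride synthesis, had 2.98 and 0.64 FPKM at 16 °C and 37.8 and 17.5 FPKM after incubation. GRK6, a kinase of G protein coupled receptors, and TMEM94, a membrane protein, were at 0.70 and 0.23 FPKM at 16 °C and at no less than 6.08 and 3.99 FPKM in any other library. ENPP3, NABP1, FAM120C and C15orf39 had log2 ratios between -3.29 and -3.16.

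Cell cycle genes split by phase. The list for the G1 to S transition and for DNA replication had 50 compared genes, with a median log2 ratio of -0.55. Of these, 13 differed at least 2-fold, all of them lower at 16 °C (26%, against 14.3% of all genes). RRM2, the regulated subunit of ribonucleotide reductase, had 48.3 FPKM at 16 °C and 260.3 FPKM in the incubated library. Cyclin E (CCNE1), which starts S phase with CDK2, had 11.6 FPKM at 16 °C against 50.2 FPKM after incubation. GINS3, part of the replicative helicase, had 9.29 FPKM at 16 °C against 40.4 FPKM after incubation. Subunits ORC1, ORC3 and ORC5 of the origin recognition complex were on the same side with log2 ratios between -1.45 and -1.24. The subunits of the MCM helicase differed among themselves. MCM3 had 35.0 FPKM at 16 °C against 87.7 FPKM after incubation, while MCM4 and MCM5 had log2 ratios of 0.27 and 0.59. The unstored library lay near the incubated one, with 279 FPKM for RRM2 and 42.1 FPKM for CCNE1. The library stored at 24 °C lay near that at 16 °C, with 60.3 FPKM for RRM2 and 8.47 FPKM for CCNE1.

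By contrast, 57 compared genes of G2, mitosis and cytokinesis had a median log2 ratio of 0.0011. Of these, 3 were higher (5.26%, near the 5.44% of all genes) and 1 was lower (1.75%, against 14.3%). The mitotic kinase CDK1 had 137 FPKM at 16 °C and 132 FPKM in the incubated library. Its cyclin CCNB1 had 184 FPKM at 16 °C against 169 FPKM after incubation. The unstored library held more of both, 199 and 359 FPKM. The higher members were PLK2, a stress-linked kinase, FZR1, the activator of the anaphase promoting complex that holds cells in G1, and the centrosome kinase NEK2. FZR1 had 107 FPKM at 16 °C against 44.3 FPKM after incubation. PLK2 had 12.1 FPKM at 16 °C against 4.45 FPKM after incubation. Among 17 compared inhibitors of the cycle and p53 targets 4 were higher (23.5%, against 5.44%) and 1 was lower (5.88%, against 14.3%). The CDK inhibitor CDKN1B (p27) had 13.2 FPKM at 16 °C against 5.67 FPKM after incubation. The cyclin CCNG2, known from resting cells, had 68.1 FPKM at 16 °C against 26.9 FPKM after incubation. CDKN1A (p21) went the other way, with 3.53 FPKM at 16 °C and 9.74 FPKM after incubation. DNA repair genes had 8 lower and 0 higher members of 45, a share of 17.8% beside the 14.3% of all genes. At a pseudocount of 5 they had 2 lower ones, beside 484 of 7697 genes. Among the 8 were subunits of the MRN complex, which binds broken DNA ends. NBN had 2.66 FPKM at 16 °C against 15.8 FPKM after incubation, and RAD50 and MRE11 had log2 ratios of -1.44 and -1.04. RAD50 and MRE11 were under 2-fold at a pseudocount of 5, and MRE11 also with size factors and after rescaling.

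Apoptosis genes were compared in 3 groups. Of 20 genes that start it, 5 were lower at 16 °C (25%, against 14.3% of all genes) and 0 higher. Their median log2 ratio was -0.60. With size factors 2 of the 20 were lower, beside 840 of 7686 genes, so no excess was left. BMF, a BH3-only protein that senses cytoskeletal stress, had 12.7 FPKM at 16 °C and 65.1 FPKM in the incubated library and at least 29.8 FPKM in every other library. Cytochrome c (CYCS), released from mitochondria in apoptosis and a carrier of respiration, had 149 FPKM at 16 °C against 335 FPKM after incubation. Of 20 executioner and substrate genes 3 were lower (15%, near the 14.3% of all genes) and 0 higher, and with size factors 2 were lower. LMNB1, a lamin cut by caspases, had 5.61 FPKM at 16 °C against 47.3 FPKM after incubation. The protease CAPN1 had 6.99 FPKM at 16 °C against 27.2 FPKM after incubation. HMGB1, a chromatin protein, had 68.7 FPKM at 16 °C against 139 FPKM after incubation, and was under 2-fold with size factors. Gelsolin (GSN), an actin-severing caspase substrate, had 42.5 FPKM at 16 °C against 40.3 FPKM after incubation. Inhibitors of apoptosis had a median log2 ratio of 0.29 over 12 compared genes. Of these, MCL1 and BCL2, which guard mitochondria, were above their incubated values but under the 2-fold bound. MCL1 had 39.2 FPKM at 16 °C against 19.1 FPKM after incubation, and BCL2 had a log2 ratio of 0.78. FAIM, an inhibitor of Fas signals, was lower with 1.34 FPKM at 16 °C against 5.43 FPKM after incubation.

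Protein synthesis and breakdown differed by step. The 52 compared ribosomal proteins had 0 higher and 0 lower members, a median log2 ratio of 0.14 and 44 values above 0. Ribosome biogenesis factors, by contrast, had 10 lower members of 42 (23.8%, against 14.3% of all genes) and 0 higher, with a median of -0.51. The WD-repeat proteins WDR3 and WDR75 of the small-subunit processome had 24.1 and 16.5 FPKM at 16 °C, against 86.3 and 61.2 FPKM after incubation. NOP56, a core protein of box C/D particles, had 40.6 FPKM at 16 °C against 109 FPKM after incubation. The unstored library was at 86.0 FPKM for WDR3 and 85.8 FPKM for NOP56, nearer the incubated one. With size factors 5 of the 42 members were at least 2-fold lower, beside 840 of 7686 genes. Translation factors had 1 lower member of 34, EIF4A2, an RNA helicase, at 154 FPKM at 16 °C against 412 FPKM after incubation. Proteasome genes had 0 higher and 0 lower members of 30 and a median log2 ratio of 0.24. With size factors they had 2 higher ones, beside 605 of 7686 genes. In the list for autophagy and lysosome 5 were higher (9.62%, against 5.44% of all genes) and 7 lower (13.5%, near the 14.3%) of 52. With size factors 9 were higher and 5 lower, beside 605 and 840 of 7686 genes. The 5 higher ones were the membrane tags MAP1LC3A and MAP1LC3B, the cargo receptors SQSTM1 and TAX1BP1, and the lipid kinase PIK3C3. MAP1LC3A had 54.8 FPKM at 16 °C against 14.8 FPKM after incubation. SQSTM1 had 143 FPKM at 16 °C against 65.6 FPKM after incubation, 35.6 FPKM without storage and 193 FPKM at 24 °C. The lower ones included the conjugation enzymes ATG3, ATG7 and ATG10, with log2 ratios between -1.51 and -1.18. At a pseudocount of 5 the list had 4 higher and 0 lower members, beside 175 and 484 of 7697 genes. With the highest row per gene SQSTM1 had a log2 ratio of 0.33.

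Metabolic lists differed in their share of lower members, which was 14.3% over all genes. Citrate cycle genes had 4 lower and 0 higher members of 17, and 16 of 17 had a log2 ratio below 0, at a median of -0.69. With size factors 2 were lower, beside 840 of 7686 genes. OGDH, the oxoglutarate dehydrogenase, had 15.5 FPKM at 16 °C and 47.4 FPKM in the incubated library. Oxidative phosphorylation, in contrast, had 1 lower member of 47, the CYCS gene given above, and a median of -0.16, near that of all genes. In glycolysis and hypoxia genes 4 were lower and 1 higher of 33, a share of lower genes near that of all genes at 12.1%. Hexokinase HK2 had 15.5 FPKM at 16 °C against 70.8 FPKM after incubation. A glucose carrier named SLC2A14 in the reference table, where SLC2A3 is its synonym, had 160.1 FPKM at 16 °C against 496 FPKM after incubation. ENO2, an enolase, was higher with 7.57 FPKM at 16 °C against 1.51 FPKM after incubation. Sterol and fatty acid synthesis had 8 lower (30.8%) and 3 higher members (11.5%, against 5.44% of all genes) of 26. The desaturase FADS1 had 4.85 FPKM at 16 °C against 26.0 FPKM after incubation. HMGCS1, which makes the precursor of mevalonate, had 18.0 FPKM at 16 °C against 54.0 FPKM after incubation. DHCR7, the last step of cholesterol synthesis, had 1.89 FPKM at 16 °C against 10.7 FPKM after incubation. The higher members are known for export of sterols or for restraining their synthesis. The exporter ABCA1 had 136 FPKM at 16 °C against 34.6 FPKM after incubation. Its regulator NR1H3 (LXR alpha) had 28.2 FPKM at 16 °C against 13.4 FPKM after incubation. INSIG1, which retains the sterol sensor in the endoplasmic reticulum, had 17.1 FPKM at 16 °C against 7.57 FPKM after incubation. At a pseudocount of 5 NR1H3, INSIG1 and ENO2 were under 2-fold. Iron and redox genes had 4 lower (13.3%, again near that of all genes) and 0 higher members of 30, among them the transferrin receptor TFRC at 17.8 FPKM at 16 °C against 65.7 FPKM after incubation. Solute carriers had 6 lower and 1 higher of 31, with SLC7A5, a carrier of large amino acids, at 41.6 FPKM at 16 °C against 115 FPKM after incubation.

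In the actin cytoskeleton 10 of 49 compared genes were lower (20.4%, against 14.3% of all genes). The 1 higher gene (2.04%, against 5.44% of all genes) was the small GTPase RHOB, at 42.8 FPKM at 16 °C against 17.5 FPKM after incubation. With size factors 6 actin genes were lower and 2 higher, beside 840 lower and 605 higher of 7686 genes. The actin-binding proteins CALD1 and CNN2 had 0.90 and 5.36 FPKM at 16 °C, against 9.65 and 30.5 FPKM after incubation. Splicing factors had 4 lower (6.9%) and 2 higher (3.45%) members of 58, both shares below those of all genes. SRSF7 had 10.3 FPKM at 16 °C against 60.4 FPKM after incubation. The kinase CLK1, which phosphorylates such factors, had 41.8 FPKM at 16 °C against 13.3 FPKM after incubation. Nuclear import receptors KPNA2 and KPNA3 were lower, in a list with 2 lower (5.71%) and 1 higher (2.86%) of 35, again below all genes. KPNA2 had 42.9 FPKM at 16 °C against 142 FPKM after incubation. Of 42 chromatin regulators 4 were lower (9.52%) and 2 higher (4.76%), also below all genes. The histone demethylase KDM5B had 17.9 FPKM at 16 °C against 73.2 FPKM after incubation. The acetyltransferase KAT6B had 13.1 FPKM at 16 °C against 2.43 FPKM after incubation. Transcription genes had 5 lower (10.9%) and 1 higher (2.17%) of 46, below all genes, and 3 lower and 4 higher with size factors. CDK9, the kinase that releases paused RNA polymerase II, had 7.30 FPKM at 16 °C against 31.3 FPKM after incubation. Its inhibitor HEXIM1 had 13.6 FPKM at 16 °C against 36.4 FPKM after incubation. Genes of messenger RNA decay had 3 higher (6.67%, near the 5.44% of all genes) and 0 lower members of 45. Clock genes had 3 higher (25%) and 1 lower (8.33%) of 12. PER2, a repressor of the clock, had 38.8 FPKM at 16 °C against 10.1 FPKM after incubation, and at 24 °C it had 16.4 FPKM. The kinase CSNK1E, which marks PER proteins for breakdown, had 18.8 FPKM at 16 °C against 91.2 FPKM after incubation. The related kinase CSNK1D went the other way, at a log2 ratio of 1.45, and was under 2-fold at a pseudocount of 5.

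The smaller lists gave few counted members. Of 18 extraembryonic and epithelial genes 2 were lower (11.1%, against 14.3% of all genes) and 1 was higher (5.56%, against 5.44%), both near the shares of all genes. The lower ones were ANXA2 and GRHL2, of which neither was counted with size factors. The higher one was the homeobox factor DLX3, with 2.45 FPKM at 16 °C against 0.17 FPKM after incubation. Among 7 compared tRNA synthetase genes 1 was higher, CARS (14.3%, against 5.44% of all genes), and 0 were lower. Their median log2 ratio was -0.61. Of 9 histone genes 1 was higher (11.1%, against 5.44% of all genes) and 0 were lower. It was H2AFJ, with 5.67 FPKM at 16 °C against 1.48 FPKM after incubation. Histone values are uncertain because copies share reads and replication-dependent histone messages lack a poly(A) tail. Over all 49 lists, 28 medians were below that of all genes and 21 above it.

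**Figure D4:**
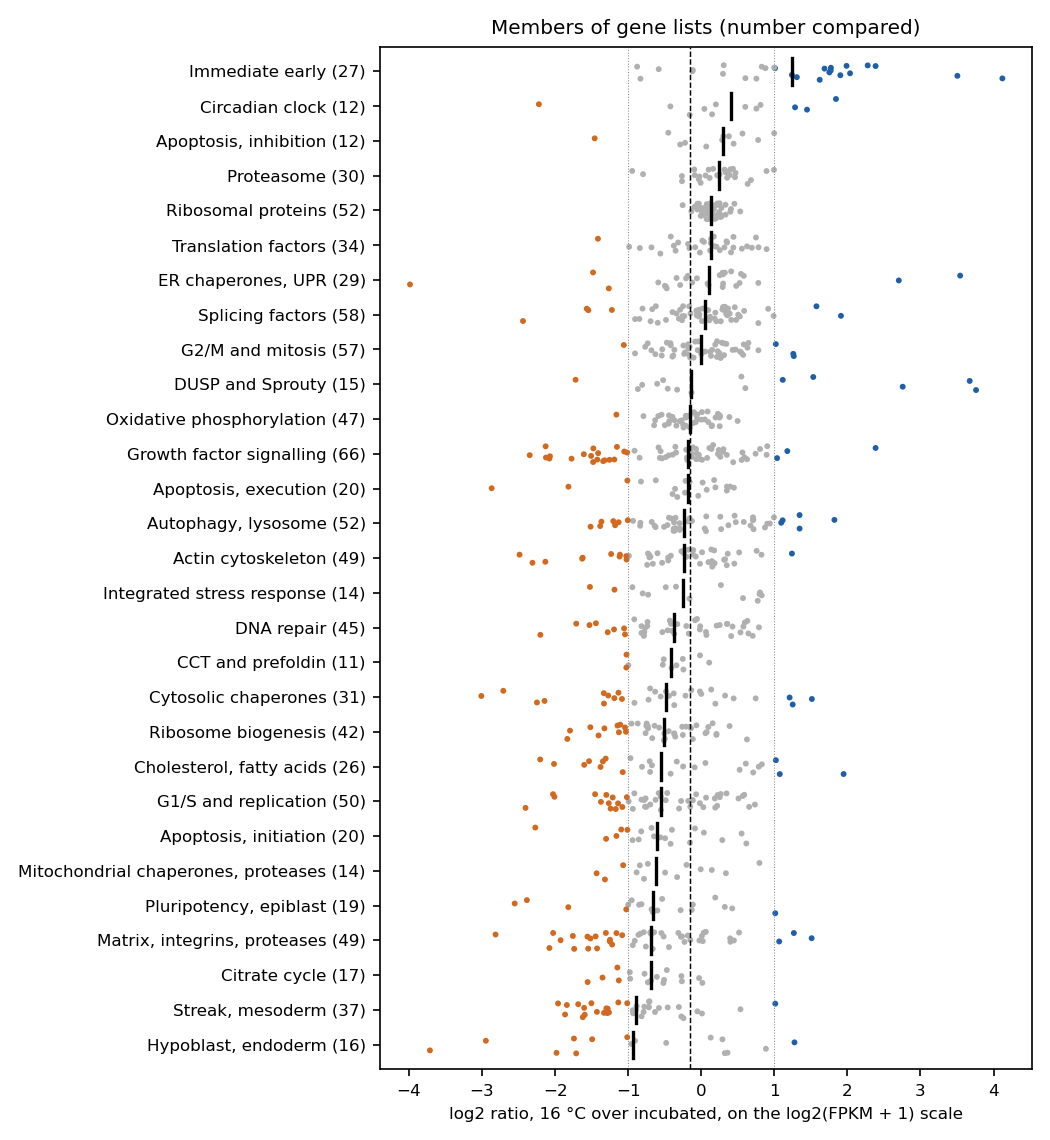
Log2 ratio of 16 °C over incubated on the log2(FPKM + 1) scale for the compared members of 29 gene lists; each point is a gene, thick bars are list medians, the dashed line is the median of all genes (-0.15) and dotted lines mark 2-fold. Immediate early genes have the highest median of the lists drawn, 1.24, and hypoblast and endoderm genes the lowest, -0.93.

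The 3 remaining libraries place the 2 compared ones. Of the 419 higher genes the unstored library lay between the 2 in 302, below both in 99 and above both in 18. For the 1100 lower genes the numbers were 840 between, 126 below both and 134 above both. These genes were picked by the distance between 16 °C and incubation, so the counts describe them and no more. At 16 °C the value was the highest of the 5 libraries in 309 of the 419 and the lowest in 768 of the 1100. Incubation gave the opposite extreme in 264 and 821 of them. In lists, the unstored value lay above both libraries for 5 of the 10 lower ribosome biogenesis genes and for 4 of the 13 lower G1/S genes. It did so for 0 of the 16 lower streak genes and 0 of the 7 lower hypoblast genes. The 17 lower matrix genes and the 8 lower DNA repair genes also had 0. With so few members, 0 is little below the share over all lower genes, 134 of 1100. Against the unstored library, the streak list had a median log2 ratio of -0.12 at 16 °C and 0.66 after incubation, and the hypoblast list 0.04 and 0.69. The same medians were -0.83 and -0.30 for ribosome biogenesis, -0.68 and -0.12 for G1/S genes, and 1.03 and -0.21 for immediate early genes. The unstored library is shared by both sides of each pair, which ties the 2 numbers together.

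Few genes set the library stored at 16 °C apart from all others. Of 7662 genes above 0 in all 5 libraries, 36 (0.47%) were at least 2-fold higher at 16 °C than in each of the other 4, and 44 (0.574%) were at least 2-fold lower. Of the 36, 5 were immediate early genes (JUN, CCN2, CYR61, NR4A3 and RHOB), 3 were DUSP genes, and HSPA5 and EIF2AK3 were members of the endoplasmic reticulum list. PER2, PLK2, DLL4 and HSPB9 were the other list members. Some of the 36, among them NR4A3, PRICKLE2 and RUNX1, reached 1 FPKM at 16 °C alone, so the filter fixed their direction. The 8 genes furthest above all others were JUN, CCN2, DUSP1, PRICKLE2, DUSP8, HSPA5, CYR61 and LBH. At the lower end, the 8 genes furthest below all others were GRK6, TMEM94, CXCL14, RABGGTB, HAS2, TRAIL-LIKE, CEP295 and SLC12A3. The TNF family gene named TRAIL-LIKE in the table had 4.71 FPKM at 16 °C against 28.3 FPKM after incubation. The centriole gene CEP295 had 0.26 FPKM at 16 °C against 5.17 FPKM after incubation. The salt carrier SLC12A3 had 0.79 FPKM at 16 °C against 11.1 FPKM after incubation. List members among the 44 included SALL4, BMF, WNT8A and CA9. No list of ribosomal proteins, proteasome subunits or oxidative phosphorylation genes had a member in either set.

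Some genes were listed at 0 in 1 of the 2 libraries and have no ratio. At 16 °C alone 24 genes were listed at 0, the highest after incubation being ZC3H13 with 11.1 FPKM and USP38 with 7.27 FPKM. In the incubated library alone 11 were listed at 0, the highest at 16 °C being CREB5 with 5.10 FPKM and AP2B1 with 3.39 FPKM. ZC3H13, CREB5 and AP2B1 were also listed at 0 without storage and at 4 °C. SPAM1 and METTL23 were also high on the first side, with 4.45 and 4.42 FPKM after incubation, and LSMEM1, ADGRA2 and S100A4 on the second, with 1.41 to 2.99 FPKM at 16 °C. An exact 0 can be a failed estimate of the software.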

How the data were processed

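Total RNA of 5 blastoderm groups was selected for poly(A) tails and sequenced, per the labels' protocols, giving 1 library per condition. The authors deposited FPKM values per RefSeq accession, rounded to 2 decimals. The submitters' processing notes name the build galGal4, TopHat2 2.0.8 and Cufflinks 2.0.2. Read counts and depth were not used here and are unknown, so no interval or detection limit could be set. The FPKM of a library summed to between 333528 and 389061 over 32188 rows, and 0 columns of values were left unused.

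Symbols came from a RefSeq table of a later assembly, GRCg7b, used for names alone. It named 12609 rows (39.2%), which held 70.4% to 72% of the FPKM of a library, and 636 of them matched with the same accession version. Rows were summed per symbol to 10102 genes, of which 8510 had 1 row. Genes that reached 1 FPKM in any library were kept. Ratios are differences of log2(FPKM + 1), a scale that makes changes of low genes look smaller. Counted genes had a difference of 1 or more and FPKM above 0 in both libraries, a description of these 2 libraries and no test.

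Genes to name were the 15 highest and 15 lowest ratios among genes with at least 5 FPKM in 1 of the 2 libraries, the 8 furthest above and the 8 furthest below all other 4 libraries, the 5 highest genes listed at 0 on each side, and examples from the gene lists by size. A few genes are not reported here by name. The members and lists were chosen with earlier results of these data known. Median-ratio size factors are one of 9 alternative settings, which the closing section covers. The calculation was checked on measured values into which known fold changes were put. No noise was added, so the check says nothing on how reliable the counted genes are. Work was done with Python 3.11.15, pandas 2.3.3, numpy 2.4.6 and matplotlib 3.10.9. Sequences and promoter motifs were not used here.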

Additional observations from a re-analysis of the deposited data

How the results depend on the processing

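The counts of genes moved with several settings, while none of the 34 genes named by rank turned round under any of the 9 alternatives, as far as each kept them, and all kept a 2-fold difference except CEP295 at a pseudocount of 5 (log2 ratio -0.95). Those genes were picked for extreme ratios. Of all 286 list members and genes named by rank that passed the bound, 104 fell under 2-fold at a pseudocount of 5, 44 with size factors, 20 after rescaling and 7 with the highest row per gene. Genes under 2-fold at a pseudocount of 5 include MIXL1, CDX4, CDKN1A, CDKN1B, PLK2, NEK2, MMP9, CD44, FGF8, KDR, TEAD4, CRIM1, NR4A3 and FAIM, and CYCS is under it with size factors. Of genes higher at 16 °C than after incubation there were 419 as reported, and 659 at a pseudocount of 0.1, 175 at a pseudocount of 5, 276 with a mean FPKM of at least 5, 785 with FPKM rescaled to 1000000 per library and 204 with curated accessions only. The last also leave fewer genes to compare. Of lower genes there were 1100 as reported, 484 at a pseudocount of 5 and 595 with curated accessions only. With size factors the counts were 605 higher and 840 lower, and after rescaling 785 and 1222, of which 60.9% were lower. The median log2 ratio of all genes, -0.15 as reported, was 0.0083 with size factors and -0.043 after rescaling. Of genes higher at 16 °C than in each of the other 4 libraries there were 75 at a pseudocount of 0.1, 13 at a pseudocount of 5, 19 with a mean FPKM of at least 5, 71 after rescaling and 15 with curated accessions, against 36 as reported. Of genes lower than in each of them there were 107, 7, 68 and 16 at a pseudocount of 0.1, at a pseudocount of 5, after rescaling and with curated accessions, against 44. With a mean FPKM of at least 5, few markers of other cells were left to compare. The 2 white blood cell markers left had a median of 0.32 and the 4 germ cell markers one of -0.17. The 1 oocyte marker left had a log2 ratio of -0.60 and the 1 follicle and granulosa marker one of 0.90. Each value lay on the other side of 0 from the list median as reported. The medians of 42 of the 49 lists kept their side of 0 with size factors. At a pseudocount of 5 the hypoblast median was -0.48 and the streak median -0.51. Beyond the construction of each setting, the cause of these moves was not tested. No paired analysis was possible because each condition has 1 library. The promoter motif shares were not run. Depth is unknown, so low values, where a pseudocount moves most, have no known counting error.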

Other observations

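Further genes outside the lists stood apart at 16 °C, and those named here were chosen after their values were seen. PTGS2 (COX-2), the inducible enzyme of prostaglandin synthesis, had 16.7 FPKM at 16 °C against 2.50 FPKM after incubation, and between 3.66 and 6.17 FPKM in the other 3 libraries. SOSTDC1, a secreted antagonist of BMP and Wnt signals, had 10.5 FPKM at 16 °C against 2.46 FPKM after incubation. RUNX1, a transcription factor of blood formation, had 2.37 FPKM at 16 °C against 0.13 FPKM after incubation. It reached 1 FPKM at 16 °C alone, so the filter fixed its direction. On the lower side, 3 enzyme and peroxisome genes may serve as examples. PHYH, a peroxisomal enzyme that breaks down branched fatty acids, had 1.25 FPKM at 16 °C against 18.4 FPKM after incubation. PEX2, which helps to build peroxisomes, had 2.99 FPKM at 16 °C against 16.8 FPKM after incubation. PANK3, which starts coenzyme A synthesis, had 11.6 FPKM at 16 °C against 45.2 FPKM after incubation. All 3 were at least 2-fold below each of the other 4 libraries.

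Rows of the same gene could differ in opposite directions. Among 383 genes with 2 or more rows at 5 FPKM or more, 24 had 1 row at least 2-fold higher and another at least 2-fold lower at 16 °C. The rows of ARHGAP17, a GTPase-activating protein, had 11.7 and 0.84 FPKM at 16 °C, against 2.81 and 9.79 FPKM after incubation. Those of HOOK3, a microtubule adaptor, had 9.30 and 1.95 FPKM at 16 °C, against 1.35 and 10.2 FPKM after incubation. The sums per gene hide such splits, and how far they reflect the assignment of reads among overlapping transcripts was not tested.

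Rows that received no symbol were 19579, and 8164 of them could be compared. Of these, 947 (11.6%) were at least 2-fold higher at 16 °C and 1079 (13.2%) lower, with a median log2 ratio of -0.04, against 5.44% and 14.3% among the named genes. The former are single rows, whereas rows of named genes were summed per gene, so the shares are not of like units.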
